A study of Mus musculus with 6 samples.

Results

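A processed pseudogene is a copy of a messenger RNA that was reverse transcribed and inserted into the genome, so it resembles the spliced parent gene, lacks its introns and usually lacks its promoter. Parents that are transcribed strongly in the germ line, ribosomal protein genes above all, have left the most copies. A young copy differs from its parent at few bases, so a short sequencing read often matches both. FPKM is the number of fragments per kilobase of gene, divided by a total for each library. The 255 processed pseudogenes described here were selected from the 54532 genes of the deposited table. They were annotated as processed pseudogenes and had a mean of at least 5 FPKM over all 6 libraries. The rule uses the level, which is therefore given as a description, and no difference between the groups.

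The libraries hold poly-A RNA of T cells from the spleens of C57BL/6 mice, aged 6 to 8 weeks by the study's methods. All T cells were kept with 10 ng/mL IL-2, pre-activated for 72 h with beads carrying anti-CD3 and anti-CD28, and then cultured together with ID8 cells. ID8 is an ovarian cancer line of mouse origin. In 3 libraries (cisplatin) the ID8 cells had been pretreated with 40 µM cisplatin, and in 3 (control) with PBS. No source used here says whether the libraries of a group came from separate mice or cultures, so the tests below measure the spread between these libraries, which may be technical. FPKM times gene length was a whole multiple of 1 step in each library, so the reads on each gene could be rebuilt, from 30606569 to 32169496 reads per library. The total that scaled FPKM was 1.03 to 1.05 times these reads in the cisplatin libraries. It was 0.976 to 0.982 times these reads in the control libraries.

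Of 9497 processed pseudogenes in the table, 4206 had a read in at least 1 library, 1052 reached a mean of 0.5 FPKM and 255 reached 5 FPKM. A parent gene could be given for 254 of the 255. It came from the symbol for 66, from the gene description for 4, and for 184 from the best alignment of the pseudogene to the protein-coding transcripts of GENCODE M21 (GRCm38). Gm12250, at 82.3 FPKM, had no such parent. Where a symbol or description named the parent, the best alignment found the same gene for 68 of 70.

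The copies on which the results turn show how near a pseudogene can lie to its parent. Each pair below is a stretch of the pseudogene and the matching coding stretch of its parent, 5′ to 3′, taken from the GENCODE M21 transcripts, and capitals mark the bases that differ. Each stretch is the one with the most differences among aligned coding stretches of at most 240 bases without a gap. Rps10-ps2 (chr16:20822168-20822407, minus strand, GRCm38) is shown because it carried nearly all reads of the Rps10 family. It differs from Rps10 at 5 of 240 bases, all towards the end of the stretch.
Rps10-ps2: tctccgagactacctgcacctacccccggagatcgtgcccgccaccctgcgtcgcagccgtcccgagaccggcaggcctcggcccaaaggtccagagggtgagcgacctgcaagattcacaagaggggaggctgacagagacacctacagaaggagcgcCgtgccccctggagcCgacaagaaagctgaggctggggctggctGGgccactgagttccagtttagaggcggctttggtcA
Rps10: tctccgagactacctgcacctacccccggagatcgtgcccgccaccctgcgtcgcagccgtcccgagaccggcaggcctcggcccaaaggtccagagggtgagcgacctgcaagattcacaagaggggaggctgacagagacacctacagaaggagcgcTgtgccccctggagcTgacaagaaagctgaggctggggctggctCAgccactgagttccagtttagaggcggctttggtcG

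Gm10241 (chr16:20176773-20177012, minus strand, GRCm38) moved against its parent Sumo2, yet the first 240 coding bases are the same in both, so they are printed once.
Gm10241: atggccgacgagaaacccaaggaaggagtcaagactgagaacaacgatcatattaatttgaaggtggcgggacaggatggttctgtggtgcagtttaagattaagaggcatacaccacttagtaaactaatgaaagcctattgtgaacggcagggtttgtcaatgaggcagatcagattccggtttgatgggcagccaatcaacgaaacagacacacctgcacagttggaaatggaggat

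Gm12193 (chr11:49776718-49776854, plus strand, GRCm38) had the largest fall and is among the copies most unlike their parent, here with 15 differences in 137 bases against Rpl29.
Gm12193: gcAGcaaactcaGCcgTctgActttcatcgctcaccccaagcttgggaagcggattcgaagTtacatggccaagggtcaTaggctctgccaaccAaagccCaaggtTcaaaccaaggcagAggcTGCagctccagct
Rpl29: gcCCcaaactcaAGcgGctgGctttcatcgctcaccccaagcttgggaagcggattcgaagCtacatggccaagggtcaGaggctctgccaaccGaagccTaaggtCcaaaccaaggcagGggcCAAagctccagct

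Hmgb1-ps8 (chr10:22262871-22263110, minus strand, GRCm38) more than doubled and differs from Hmgb1 at 8 of 240 bases, spread along the stretch.
Hmgb1-ps8: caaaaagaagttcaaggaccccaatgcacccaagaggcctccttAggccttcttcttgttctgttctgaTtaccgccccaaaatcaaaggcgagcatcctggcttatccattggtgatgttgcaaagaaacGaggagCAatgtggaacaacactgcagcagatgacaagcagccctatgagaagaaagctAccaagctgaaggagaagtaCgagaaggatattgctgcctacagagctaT
Hmgb1: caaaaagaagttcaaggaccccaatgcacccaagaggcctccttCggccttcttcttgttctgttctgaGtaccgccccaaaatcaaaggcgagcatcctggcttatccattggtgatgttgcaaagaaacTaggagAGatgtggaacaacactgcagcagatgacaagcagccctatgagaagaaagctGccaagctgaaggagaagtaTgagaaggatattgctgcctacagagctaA

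Tpi-rs11 (chr6:127183479-127183718, minus strand, GRCm38) had the largest fall among the copies of glycolysis genes and differs from Tpi1 at 7 of 240 bases.
Tpi-rs11: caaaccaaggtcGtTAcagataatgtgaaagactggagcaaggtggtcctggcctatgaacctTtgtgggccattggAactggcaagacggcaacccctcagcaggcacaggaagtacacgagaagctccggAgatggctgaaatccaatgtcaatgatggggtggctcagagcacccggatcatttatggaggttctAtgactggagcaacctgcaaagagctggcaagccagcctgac
Tpi1: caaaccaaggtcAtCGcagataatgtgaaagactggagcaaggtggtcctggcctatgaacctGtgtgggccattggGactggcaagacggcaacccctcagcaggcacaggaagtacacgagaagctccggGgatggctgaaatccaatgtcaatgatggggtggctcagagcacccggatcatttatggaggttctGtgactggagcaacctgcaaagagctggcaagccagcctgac

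Gm5559 (chr5:95861859-95862098, plus strand, GRCm38), the highest of the 3 Gapdh copies, differs from Gapdh at 1 of 240 bases, the last one shown, and is printed without its parent.
Gm5559: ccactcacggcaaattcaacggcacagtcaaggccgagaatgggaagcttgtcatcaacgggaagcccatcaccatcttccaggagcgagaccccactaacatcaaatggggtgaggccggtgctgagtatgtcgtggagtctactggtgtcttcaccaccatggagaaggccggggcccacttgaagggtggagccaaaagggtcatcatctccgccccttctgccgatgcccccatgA

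The 255 processed pseudogenes were closer to a protein-coding transcript than those at lower levels. Their median identity to the best-aligned transcript was 99.5%, and 68.5% of those aligned were at 99% or more. For the 797 pseudogenes from 0.5 to under 5 FPKM the median was 97.0% and the share at 99% or more 22%. It was 91.5% and 4.12% for those under 0.5 FPKM with a read, and 86.2% and 1.04% for those with no read. Identity thus fell step by step with the level. An open reading frame from ATG to a stop spanned at least 80% of the pseudogene in 47.5% of the 255, in 26.6% of those from 0.5 to under 5 FPKM, in 11.4% of those under 0.5 FPKM with a read and in 5.71% of those with no read. Of the 254 with a parent, 113 (44.5%) had a frame of at least 90% of the parent's coding length. A frame counted only where its stop lay within the span, so these shares are lower bounds. Ptges3-ps, Gm10052 and Rps13-ps2, identical to their parents over the aligned bases, had values of 23.8%, 19.7% and 5.30%. Rpl17-ps10, Tpt1-ps3 and Gm5559 kept the whole frame. The values of Rps10-ps2 (11.5% of Rps10) and Gm10241 (17.9% of Sumo2) do not show a lost frame. Their spans of 496 and 286 bases leave no room for a stop codon after the 495 and 285 coding bases of the parents.

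**Figure D1:**
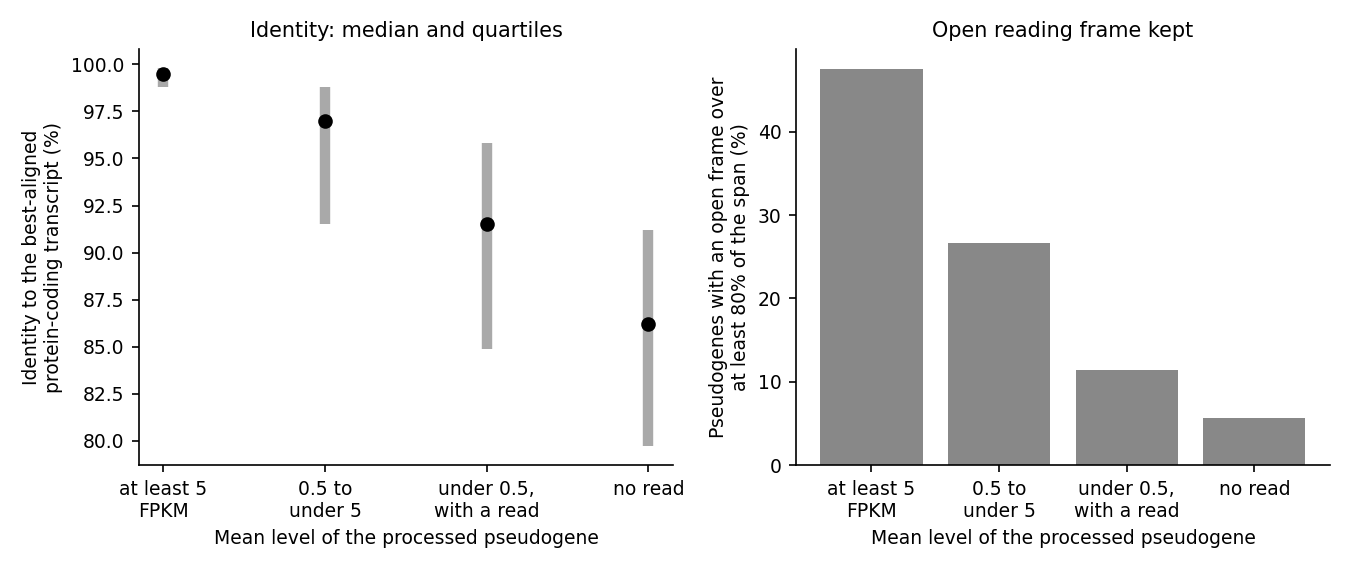
Processed pseudogenes grouped by their mean level over the 6 libraries (x axis). On the left, points are the median identity (percent) to the best-aligned protein-coding transcript and bars run from the lower to the upper quartile. On the right, bars give the percent with an open reading frame over at least 80% of the span, counted only where the stop lay within it. Both were highest in the group of at least 5 FPKM (99.5% and 47.5%) and lowest in the group with no read (86.2% and 5.71%).

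Identity bears on how a read can be placed. Of the 251 copies of at least 100 bases with a parent, 146 shared at least 50% of their 100-base windows, letter for letter, with a transcript of the parent, and 105 shared less, 19 of them none. Of the 254 with a parent, 49 were identical to the parent over the aligned bases. How reads that match several genes were treated, and whether strand was used, is not given in the sources used here, so the split of reads between a copy and its parent is uncertain for most of these genes. Of the 255, 164 overlapped no other gene of the table, 39 overlapped a gene on the same strand and 56 a gene on the other strand (4 of them both). Overlap was taken over whole spans from gene start to gene end, introns included, and whether exons overlap was not examined. Where exons on opposite strands overlap, the reads cannot be told apart without strand. Where they overlap on the same strand, strand does not separate them.

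The mean level ran from 5.03 to 541 FPKM with a median of 14.6, and 18 pseudogenes were at 100 FPKM or more. They were short (78 to 2406 bases, median 489), so their median of 261 reads per library was low beside that of the 7665 protein-coding genes of at least 5 FPKM (1990 reads). Together they held 3.46% to 3.54% of all FPKM in the cisplatin libraries and 2.96% to 3.30% in the control libraries. In rebuilt reads this was 0.573% to 0.583% against 0.467% to 0.512%. On both scales every cisplatin library lay above every control library. The 106 copies of ribosomal protein genes supplied 69.9% to 71.2% of this FPKM in the cisplatin libraries and 63.8% to 66.3% in the control libraries.

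The 9 described here of the 10 highest were copies of genes for ribosomal proteins and of Tpt1, which encodes an abundant growth-related protein. Gm9794, a copy of Rpl23 on chromosome 6, was at 560, 643 and 585 FPKM in the cisplatin libraries and at 456, 488 and 515 FPKM in the control libraries. Rps10-ps2 was at 417, 469 and 421 FPKM against 300, 326 and 359 FPKM. In both the groups did not overlap. Rps16-ps2 (391 FPKM on average) and Tpt1-ps3 (189 FPKM) were also higher in every cisplatin library. For these 4 the log2 fold changes (cisplatin over control, on the log2(FPKM + 0.1) scale) lay between 0.24 and 0.41 with adjusted p-values of 0.003 to 0.015 by limma. All 4 turned negative, from -0.29 to -0.12, when the libraries were centred on T-cell identity genes, and Rps16-ps2 (0.06) did not pass after quantile normalization or without cisplatin replicate 3 (0.23).

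Other high copies spread widely within a group. Rpl17-ps10 was at 687, 623 and 446 FPKM against 210, 462 and 298 FPKM, so the groups overlapped although the mean was higher with cisplatin (log2 fold change 0.91 ± 0.30 SE, adjusted p = 0.038 by limma). It missed the threshold without cisplatin replicate 1 (0.78) or 2 (0.85) and without control replicate 1 (0.63) or 3 (0.89), and also with quantile normalization (0.80) or centring (0.38). Rpl17-ps3, another copy of the same gene, was at 283, 370 and 434 FPKM against 375, 423 and 301 FPKM, which did not differ beyond the spread. Gm14303 (Rps29), Gm10443 (Rps28) and Rpl38-ps2 overlapped between the groups as well and did not pass the test (adjusted p = 0.15, 0.53 and 0.63 by limma). Gm14303 passed with the replicate block (0.45) and with voom on the rebuilt reads (0.54).

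**Figure D2:**
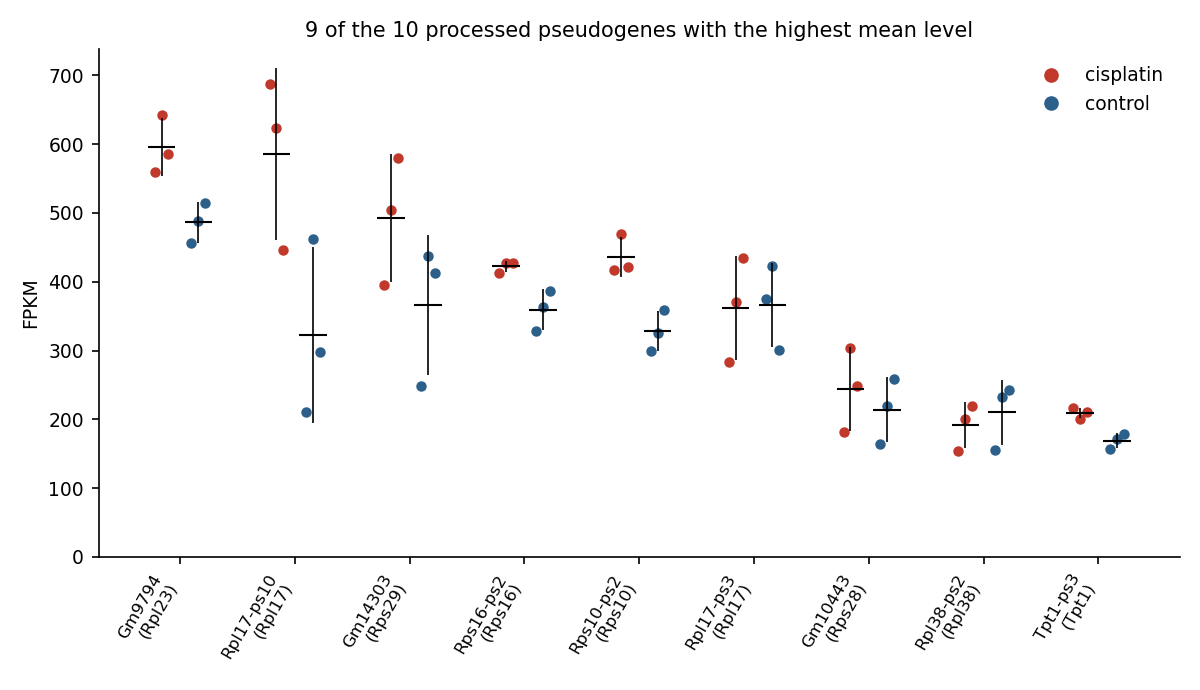
FPKM (y axis, from 0) of 9 of the 10 processed pseudogenes with the highest mean, with the parent gene in brackets; points are libraries, horizontal lines the mean of 3 libraries and vertical lines the SD. Gm9794, Rps16-ps2, Rps10-ps2 and Tpt1-ps3 were higher in every cisplatin library on the deposited scale and turned negative after centring on T-cell identity genes, whereas the others overlapped.

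Across the 255, 59 rose and 31 fell with cisplatin-pretreated ID8 cells at an adjusted p under 0.05 by limma (Benjamini-Hochberg over the 15874 tested genes), where 27.5% of all tested genes rose and 29.0% fell. A fold change of at least 2 was reached as well by 6 that rose and 14 that fell, beside 4.11% and 12.8% of all tested genes. The libraries of the groups did not overlap for 94 of the 255, 59 above and 35 below, beside 64.2% of all tested genes. All 255 passed the filter on low values, which lies below the level that selected them. The share that passed the test, 35.3%, was below that of all tested genes (56.5%) and of the protein-coding genes of at least 5 FPKM (71.0%). Their median standard error was larger too, 0.14 against 0.06 for those protein-coding genes on the log2 scale. The median log2 fold change was 0.13 for the 255, 0.03 for all tested genes and 0.01 for the protein-coding genes.

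These counts moved with the scaling. With FPKM rescaled by the rebuilt reads, the median log2 fold change over all tested genes shifted by 0.08. That of the 255 was then 0.22. Centred on the T-cell identity genes, which rose by a median of 0.58 on the deposited scale, the median over all tested genes shifted by -0.53, and 3 of the 255 rose while 127 fell (adjusted p under 0.05 by limma). Of the 59 that rose on the deposited scale, 45 had a value below 0 once centred and 3 still rose, Hmgb1-ps8, Gm37579 and Gm26528. The rises given below are on the deposited scale, and those of Gm13050, Gm14494, Gm6545 and Impdh2-ps turned to -0.13, -0.06, -0.09 and -0.07 once centred. Without cisplatin replicate 3, 38 of the 255 rose. Whether cells of a type were fewer or held less RNA each cannot be told apart in bulk libraries.

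Marker lists moved with the groups. Summed over the 26 T-cell identity genes, the level was 3256 to 3329 FPKM in the cisplatin and 2070 to 2199 FPKM in the control libraries. None of the 26 was near 0. The 28 listed ID8 tumour genes found in the table summed to 344 to 356 FPKM against 1889 to 1991 FPKM, and 20 of the 24 tested were called lower. The 10 B-cell markers summed to 3638 to 3711 FPKM against 1701 to 1789 FPKM, with Ighm taking the largest share. The 11 myeloid markers summed to 129 to 148 FPKM against 65.9 to 70.2 FPKM. Single genes went both ways. Of the T-cell identity genes 25 rose and 1 fell (log2 fold change -0.60), and of the B-cell markers 9 rose and 1 fell (-1.06). Of the 10 tested myeloid markers 8 rose and 1 fell (-0.47), and of the tested ID8 genes 21 fell and 1 rose. The part of these shifts in the results on pseudogenes was not tested.

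Copies of ribosomal protein genes made up the largest group, and most of those that passed the test were higher. Ribosomal proteins form the 2 subunits of the ribosome and their genes are among the most strongly transcribed of all. Of the 106 copies, 34 rose and 2 fell on the deposited scale, where 27.5% of all tested genes rose and 29.0% fell. Together 34.0% of the 106 passed the test, beside 56.5% of all tested genes. The median log2 fold change of these copies was 0.23. Once centred on T-cell identity genes, 0 of the copies rose, 38 fell and the median was -0.30. Without cisplatin replicate 3, 20 rose. Their 62 parents showed the same order on the deposited scale, with 50 that rose, 0 that fell (2 had a log2 fold change below 0) and a median of 0.35. The 83 ribosomal protein genes of the fixed list had 68 that rose and a median of 0.36.

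The 6 copies of Rpl21, a protein of the large subunit, illustrate the group. Rpl21-ps15 on chromosome X was at 159, 126 and 127 FPKM in the cisplatin and 112, 98.8 and 98.9 FPKM in the control libraries (log2 fold change 0.40 ± 0.10 SE, adjusted p = 0.014 by limma). Gm13370 and Gm10163 rose by 0.35 and 0.44 (adjusted p = 0.019 and 0.029 by limma). Gm12411, Gm10240 and Rpl21-ps8 had values of 0.43, 0.28 and 0.58 and did not pass. All 6 had a positive log2 fold change on the deposited scale, and the groups did not overlap for the 3 that passed.

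The 2 ribosomal protein copies that fell were unlike the rest. Gm12193, on chromosome 11 and annotated from position 49776499 to 49776877, was at 2.69, 1.19 and 1.30 FPKM in the cisplatin and 19.4, 21.1 and 18.7 FPKM in the control libraries. The control values all lay far above the cisplatin values, and the fall of 3.53 on the log2 scale (SE 0.28, adjusted p = 6.2e-05 by limma) was the largest among the 255. With 80.5% identity to Rpl29 and no shared 100-base window, it is the Rpl29 copy least like the parent. The parent itself was at 409, 407 and 385 FPKM against 312, 334 and 338 FPKM, a rise of 0.29 on the deposited scale (-0.24 after centring). Of the other 4 copies of Rpl29, at 99.2% to 99.4% identity, Gm10709 rose by 0.43 (adjusted p = 0.038 by limma), and Gm13841, Gm8210 and Gm14036 had log2 fold changes of 0.37, 0.28 and 0.15 that did not pass.

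Gm10736, a 78-base copy of Rpl41 that is identical to it, was the other. It was at 22.2, 82.8 and 13.1 FPKM against 70, 120 and 191 FPKM, so the groups overlapped (log2 fold change -2.02 ± 0.70 SE, adjusted p = 0.046 by limma). It passed in only 2 of the 6 fits without 1 library, missing the threshold without cisplatin replicate 1 or 3 and without control replicate 2 or 3, with log2 fold changes from -2.77 to -1.45. Rpl41 itself rose by 0.48 on the deposited scale. The copy held at most 1.95% of the reads of the pair in any library.

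The 5 copies of Rpl7a were higher than their parent in fold change. Gm5854 was at 41.9, 38.3 and 47.8 FPKM against 13.3, 15.2 and 36.3 FPKM (log2 fold change 1.12 ± 0.36 SE, adjusted p = 0.035 by limma). It passed only 1 of the 6 fits without 1 library, the one without control replicate 3, and the log2 fold change there ranged from 0.85 to 1.57 over the 6. Rpl7a-ps3 rose by 0.92 (adjusted p = 0.04 by limma), a call lost without any 1 of the cisplatin libraries or control replicate 1 (0.82 to 1.01), with no filter or no trend in the variance prior (0.92 in both) and with centring (0.39), and the other 3 had values from 0.63 to 0.68 that did not pass. Rpl7a was at 209, 254 and 148 FPKM against 203, 318 and 257 FPKM, with a log2 fold change of -0.36 that did not pass (adjusted p = 0.23 by limma).

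All 6 copies of glycolysis genes fell, and all by more than 2-fold, where 12.8% of all tested genes were called lower. Glycolysis splits glucose into pyruvate in the cytosol, and Gapdh, Tpi1, Pgam1 and Pkm encode 4 of its enzymes. Tpi-rs11, a copy of the triosephosphate isomerase gene, was at 7.28, 7.79 and 9.55 FPKM in the cisplatin and 51.9, 65.2 and 57.7 FPKM in the control libraries (log2 fold change -2.82 ± 0.12 SE, adjusted p = 3.5e-06 by limma). Pgam1-ps2, identical to the phosphoglycerate mutase gene, was at 2.26, 1.5 and 1.61 FPKM against 10.1, 8.94 and 11.0 FPKM. Gm6560, a copy of the pyruvate kinase gene Pkm, was at 4.74, 4.99 and 4.48 FPKM against 23.8, 20.6 and 12.6 FPKM. No cisplatin library of these 3 reached any control library.

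The 3 copies of Gapdh fell by similar amounts. Gm5559 was at 18.4, 18.9 and 19.0 FPKM against 56.8, 68.0 and 65.5 FPKM (log2 fold change -1.75 ± 0.07 SE, adjusted p = 2.1e-06 by limma). Gm13394 and Gm12033 fell by 1.73 and 1.57 on the log2 scale. Gapdh was lower per length than its highest copy, at 3.97, 4.02 and 3.63 FPKM against 22.4, 11.2 and 15.6 FPKM, and it fell by 2.0. Of all reads on Gapdh and these 3 copies, 57.1% were placed on the copies. The 4 parents fell by 2.0 to 2.77, and all 12 glycolysis genes of the fixed list were called lower. The 6 copies were called lower in every fit without 1 library. Beside them the summed ID8 tumour markers were lower in every cisplatin library, and the part of this in the fall was not tested.

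Gm4735, a copy of Eno1b, belongs beside them, since Eno1b is itself a gene of the enolase family that was not in the fixed list. It was at 2.56, 2.64 and 2.70 FPKM against 10.4, 11.1 and 11.0 FPKM, with the smallest standard error among the 5 largest falls (log2 fold change -2.0 ± 0.06 SE, adjusted p = 5.6e-07 by limma). Eno1b fell by 2.18. Mpc1-ps, a copy of the gene for a subunit of the mitochondrial pyruvate carrier, was at 42.0, 38.0 and 39.9 FPKM against 90.7, 92.1 and 82.6 FPKM and fell by 1.14, near the fall of 1.10 of Mpc1.

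Among the 12 copies of translation factor genes, 3 rose and 2 fell. Over all tested genes 27.5% rose and 29.0% fell, which also stands beside the counts for chromatin and mitochondrial copies below. Gm13050, a copy of the elongation factor gene Eef2 with almost no 100-base window in common with it, was at 35.7, 34.5 and 36.8 FPKM against 26.3, 28.3 and 26.3 FPKM (log2 fold change 0.40 ± 0.04 SE, adjusted p = 2.8e-04 by limma). Eif4a-ps4, a copy of the helicase gene Eif4a1, was at 71.3, 68.4 and 70.3 FPKM against 86.6, 82.3 and 86.0 FPKM and fell by 0.28. Gm6548, a copy of the elongation factor gene Eef1a1 with no shared 100-base window, fell by 0.24 while Eef1a1 rose by 0.23 on the deposited scale. In each of the 3 the groups did not overlap. Of the 18 copies of chromatin and nuclear RNA-binding genes, 4 rose and 1 fell. Gm4739, a copy of Hmgb2, rose by 0.69, near the rise of 0.74 of the parent, and Gm10052, identical to Hnrnpa1, fell by 0.36. Of the 8 copies of mitochondrial genes, 2 rose and 2 fell, with Gm14494, a copy of the import receptor gene Tomm20, up by 0.47.

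**Figure D3:**
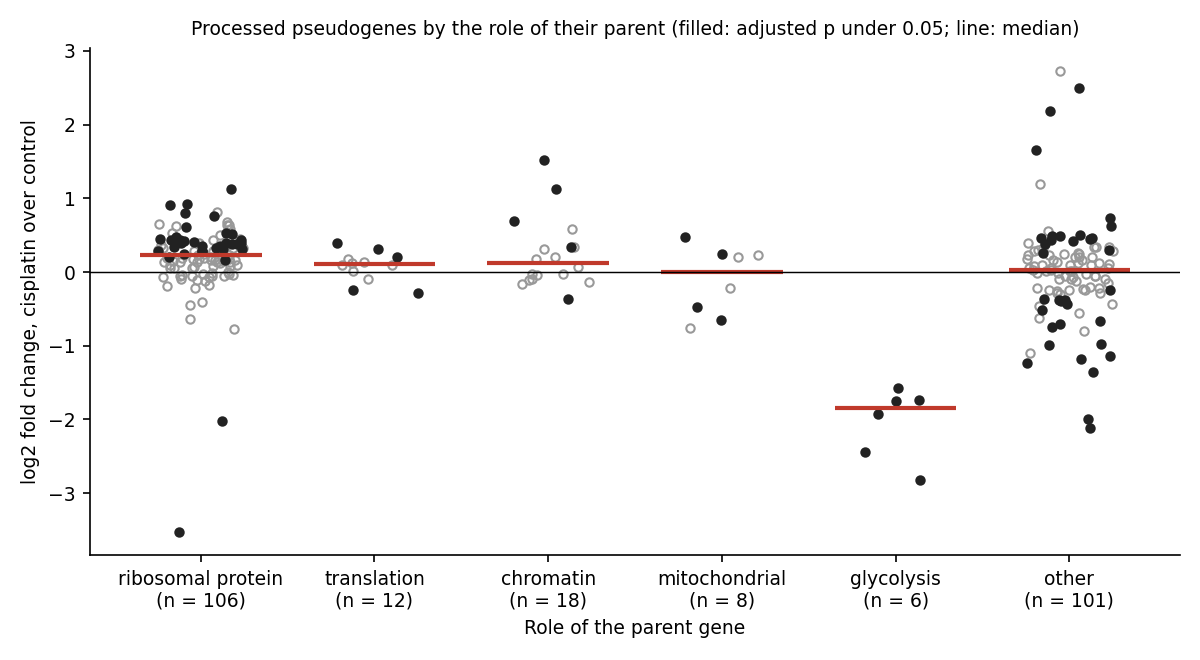
Log2 fold change of each processed pseudogene (y axis, cisplatin over control, limma) by the role of its parent gene (x axis); filled points have an adjusted p under 0.05, lines are medians, and 4 pseudogenes with a cytoskeletal, chaperone or no parent are not drawn. The median was 0.23 for copies of ribosomal protein genes on the deposited scale (-0.30 after centring on T-cell identity genes) and -1.84 for the 6 copies of glycolysis genes, all of which fell.

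Hmgb1-ps8 stood apart from the other copies of Hmgb1, which encodes an abundant DNA-bending protein. It was at 70.5, 74.1 and 79.9 FPKM in the cisplatin and 37.1, 30.6 and 35.2 FPKM in the control libraries, and the groups were far apart (log2 fold change 1.13 ± 0.08 SE, adjusted p = 3.6e-05 by limma). Its identity to Hmgb1 was 95.8%, with no shared 100-base window. The other 5 copies, at 98.4% to 99.8% identity, had log2 fold changes from -0.16 to 0.31 and none passed. Hmgb1 had a value of 0.18 (adjusted p = 0.045 by limma) that missed the threshold in 5 of the 6 fits without 1 library (0.14 to 0.20), with no filter, no trend or the replicate block (0.18 in each) and with TPM (0.16), and was -0.35 once centred. The 6 copies together held 49.5% to 52.6% of the family's reads in the cisplatin libraries and 41.7% to 46.8% in the control libraries.

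Hmgb1-ps8 lies within other genes, as do the other 4 of the 5 largest rises. On chromosome 10 it overlaps the antisense gene Gm26740 on its own strand and H60b and Raet1e, which encode ligands of the receptor NKG2D, on the other strand. Gm26740 was at 34.7, 36.1 and 36.2 FPKM against 16.1, 17.5 and 17.2 FPKM and rose by 1.07, while H60b rose by 0.96 and Raet1e fell by 1.72. Gm26528, a copy of part of Arhgap5, lies in the same genes. It was at 6.55, 9.17 and 11.1 FPKM against 2.59, 2.47 and 3.11 FPKM (log2 fold change 1.65 ± 0.20 SE, adjusted p = 4.2e-04 by limma), whereas Arhgap5 fell by 2.13.

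Gm37579 and Gm38208, short copies of parts of the adaptor gene Sh3d19, lie near each other on chromosome 3 inside Gm5538 on the other strand. Gm37579 was at 11.5, 14.5 and 11.7 FPKM against 2.58, 0.939 and 3.90 FPKM (log2 fold change 2.5 ± 0.46 SE, adjusted p = 0.0035 by limma). Gm38208 was at 11.1, 11.1 and 8.39 FPKM against 4.67, 0.585 and 3.43 FPKM (log2 fold change 2.18 ± 0.69 SE, adjusted p = 0.033 by limma), and its lowest library rested on 2 reads. Gm38208 missed the threshold without any 1 of the cisplatin libraries (2.11, 2.11 and 2.31 without replicate 1, 2 and 3) and with centring (1.65). Gm5538 rose by 1.53 and Sh3d19 fell by 2.27. The copies thus moved with the gene they lie in and against the gene they were copied from, and whether their reads came from the other strand was not tested.

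Gm10241, the copy of the ubiquitin-like modifier gene Sumo2 printed above, is a pair in which identical sequences moved apart, as Gm10736 and Rpl41 are. It was at 94.3, 99.9 and 72.5 FPKM in the cisplatin and 20.8, 64.4 and 21.5 FPKM in the control libraries (log2 fold change 1.52 ± 0.43 SE, adjusted p = 0.022 by limma). Sumo2 was at 5.34, 6.17 and 15.0 FPKM against 40.9, 21.8 and 37.0 FPKM and fell by 2.0. Where one of the pair was high within a group the other was low, as in cisplatin replicate 3 and control replicate 2. The copy held 74.4%, 72.7% and 44.3% of the reads of the pair in the cisplatin libraries and 7.75%, 32.8% and 8.74% in the control libraries. The reads of both together were 1173, 1302 and 1516 against 2310, 1685 and 2162. The rise of Gm10241 missed the threshold without cisplatin replicate 1 (1.47) or 2 (1.43) and without control replicate 1 (1.24) or 3 (1.26), and with centring (0.99). Yeats2, in which it lies on the other strand, had a log2 fold change of -0.15 that did not pass (adjusted p = 0.076 by limma).

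**Figure D4:**
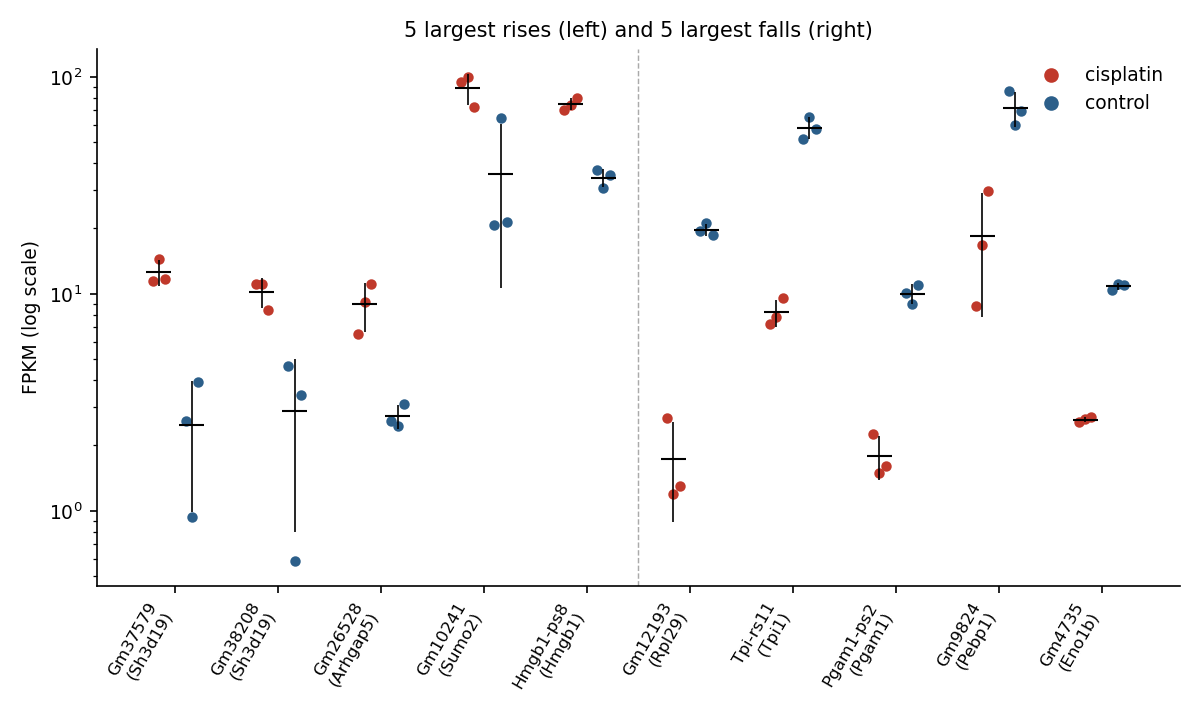
FPKM on a log axis of the 5 largest rises (left of the dashed line) and the 5 largest falls (right) among processed pseudogenes whose groups did not overlap, with the parent gene in brackets; points are libraries, horizontal lines the mean of 3 libraries and vertical lines the SD. Gm37579 and Gm38208 spread over the control libraries by several fold, whereas Gm4735 varied little within either group.

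Copy and parent were compared for the 251 copies with a tested parent. The difference of the 2 log2 fold changes was at most 0.25 for 153 pairs and over 1 for 16, with a median size of 0.20. The median was 0.16 for pairs that shared at least 50% of their windows and 0.21 for those that shared less, and since most fold changes were small a small difference does not by itself link copy and parent. Pearson's r across pairs was 0.34 and Spearman's rank correlation 0.45, over pairs that share libraries and, for near-identical sequences, reads. The r was 0.63 for the 145 pairs that shared at least 50% of their windows and 0.10 for the 103 that shared less. The 103 hold Gm37579, Gm38208, Gm26528 and Gm12193, far from their parents, and r is sensitive to such pairs. A rank correlation was not computed for these sets. Of the 87 copies that passed the test and had a tested parent, the parent passed in the same direction for 68, in the other direction for 8 and not at all for 11. The 8 were Gm10736, Gm10241, Gm6548, Gm12193, Gm37579, Gm38208, Gm26528 and Gm8233, a copy of the chromatin remodelling gene Ino80c. Of the 5 pairs farthest apart, the differences in log2 fold change were 4.76 for Gm37579, 4.44 for Gm38208, -3.82 for Gm12193, 3.79 for Gm26528 and 3.52 for Gm10241. These 5 were picked for the size of the difference, which is therefore given with no test.

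**Figure D5:**
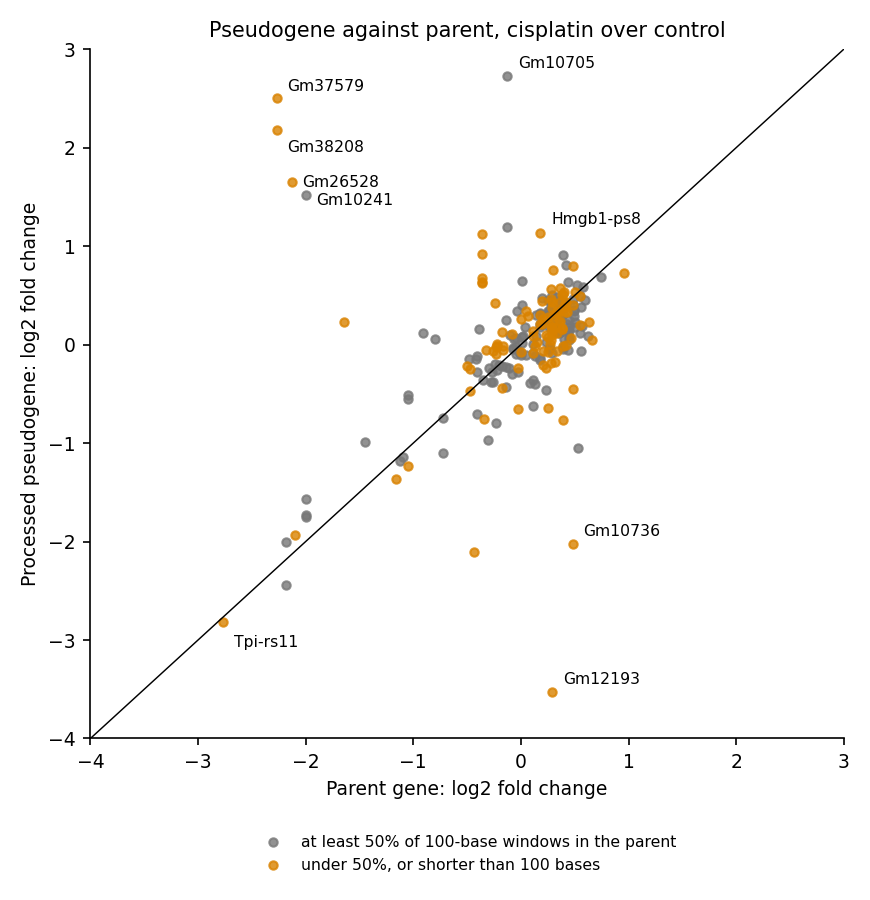
Log2 fold change of 251 processed pseudogenes (y axis) against that of their parent genes (x axis), cisplatin over control; the line marks equal values and colours split the copies by the share of their 100-base windows found in the parent (at least 50%, or less and shorter copies). Of the 251 points, 153 lie within 0.25 of the line, with Gm37579, Gm38208, Gm26528 and Gm10241 above it at upper left and Gm12193 and Gm10736 below it.

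Some copies drew more reads than the gene they came from. In FPKM, 55 of the 254 copies were above their parent and 8 at least 10 times above, although the parent's gene length in the table includes exons that the copy lacks. In reads, which need no length, the copies held over 50% of the family's reads in 12 of 188 families and at least 90% in 5. Rps10-ps2 and Rps10-ps1 held 98.1% of the reads of the family of Rps10, a protein of the small subunit. Rps10 itself was at 2.27, 1.63 and 1.94 FPKM against 1.46, 1.41 and 1.38 FPKM, on 98 to 170 reads per library. The share lay between 97.7% and 98.5% in the cisplatin and between 98.0% and 98.3% in the control libraries, so it did not differ beyond the spread. Gm9385 held 94.9% of the reads it shared with Rpl24. The median over families was 8.26%.

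Bambi-ps1, a copy of the TGF-beta pseudoreceptor gene Bambi, was a case with little sequence in common, at 88.6% identity and no shared window. It was at 43.3, 38.5 and 36.6 FPKM against 27.3, 24.2 and 25 FPKM and rose by 0.63 on the deposited scale, while Bambi stayed at 8 to 25 reads in every library. Gm6545, the copy least like its parent (73.2% identity to Fam111a), was at 17.5, 17.5 and 16.8 FPKM against 13.6, 12.6 and 11.9 FPKM and rose by 0.44. Over the 19 copies with no shared window, 8 rose and 2 fell on the deposited scale, so 52.6% passed the test. Of the 146 that shared at least 50% of their windows, 32 rose and 20 fell, so 35.6% passed. Over all tested genes 27.5% rose, 29.0% fell and 56.5% passed. The 19 had a median log2 fold change of 0.23.

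Among copies of genes with other roles, Gm9824 showed a large fall against a small one of its parent Pebp1, which encodes an inhibitor of Raf kinase. It was at 8.81, 16.7 and 29.9 FPKM against 86.4, 60.2 and 69.5 FPKM (log2 fold change -2.11 ± 0.41 SE, adjusted p = 0.0045 by limma). Pebp1 was at 68.2, 69.8 and 59.7 FPKM against 81.1, 97.2 and 89.4 FPKM and fell by 0.44. Gm6768, a copy of the ferritin receptor gene Ncoa4, Gm7665, a copy of the calcium-binding gene S100a11, and Gm9791, a copy of Carhsp1, fell by 1.18, 1.23 and 1.36. Impdh2-ps, a copy of a gene for guanine nucleotide synthesis, rose by 0.46 (adjusted p = 4.3e-05 by limma) and Prkcz2, a copy of a protein kinase C gene, by 0.73 (adjusted p = 1.5e-04 by limma).

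Of the 20 copies called at 2-fold, 16 were called in all 6 fits without 1 library, 13 that fell and 3 that rose (Hmgb1-ps8, Gm37579 and Gm26528). The 4 others were Gm10736, Gm10241, Gm5854 and Gm38208, described above. The 164 copies that overlap no other gene included 1 called higher and 8 called lower. The 91 that overlap another gene included 5 called higher and 6 called lower. Of the 6 called higher, 5 thus overlapped another gene. Over all tested genes 4.11% were called higher and 12.8% lower.

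Replicates of one group differed beyond counting error for most of these copies. The chi-square per degree of freedom of the rebuilt reads within groups, where 1 means counting error alone, had a median of 6.13 over the 181 copies with 100 to 1000 reads on average and 3.54 over the 1698 protein-coding genes in the same band. It was above 10 for 29.8% of the former and 6.30% of the latter. In this band the median depth was 256 reads for the copies and 677 for the protein-coding genes, so their depths were not matched. The 32 parents of the copies in the band had a median of 4.44, with 28.1% above 10, and over all depths the parents were at 11.3 and the copies at 6.35. Gm10123, a copy identical to the cyclophilin gene Ppia, had the highest value. It was at 289, 83.8 and 52.3 FPKM against 227, 272 and 183 FPKM, and its chi-square per degree of freedom was 996, while the reads of both together gave 56.0. Its log2 fold change was -1.05 ± 0.59 SE and did not pass (adjusted p = 0.17 by limma).

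Both copies of Ube2l3, the gene for a ubiquitin-conjugating enzyme, varied widely as well. Gm10705 rested on 253, 694 and 452 reads in the cisplatin and on 112, 2 and 569 reads in the control libraries, and Gm10145 on 112, 205 and 90 against 48, 17 and 157. The low and the high control libraries were the same for both copies. Ube2l3 itself varied little, from 2318 to 2477 reads. On the log2 scale Gm10705 had the largest SD within groups (2.71, against 0.922 for Gm10123). The log2 fold change of Gm10705, 2.73, was the highest of the 255, but its SE was 1.73 and it did not pass (adjusted p = 0.23 by limma).

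At the threshold, the copies just inside were Rpl7a-ps3 at 5.03 FPKM and Gm20689 (Rab8b) at 5.06 FPKM. Just outside were Gm7336 at 4.998 FPKM and H3f3c at 4.83 FPKM. Gm7336 was at 2.48, 2.18 and 2.75 FPKM in the cisplatin and 7.89, 8.96 and 5.71 FPKM in the control libraries. Among the 797 processed pseudogenes from 0.5 to under 5 FPKM, 64 rose and 60 fell, with a median log2 fold change of 0.06. Together 15.6% of the 797 passed the test, beside 56.5% of all tested genes. Their median standard error was 0.39 on the log2 scale, against 0.09 for all tested genes.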

How the data were processed

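The authors deposited 1 table of FPKM values per gene and library, which holds the gene length and annotation as well and no values of other samples. The submitters' processing notes list fastp, HISAT2 2.0.5, featureCounts 1.5.0-p3 and mm10, whereas the study's methods name LifeScope. Strand and the treatment of reads matching several genes are not given in the sources used here. FPKM times gene length gave whole reads for 100% of values (tolerance 0.1 read), and these rebuilt reads were used for depth, shares and spread.

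Genes averaging 0.5 FPKM or more were tested on log2(FPKM + 0.1) with limma 3.58.1 in R 4.3.3, with a trend in the variance prior and Benjamini-Hochberg adjustment. The pseudocount makes fold changes of low genes too small. A gene rose or fell at an adjusted p under 0.05 and was called when the change was also at least 2-fold. On simulated data the fit called 198 of 200 changed genes and 6 unchanged genes of 15878. The simulation used 1 fixed spread for every gene, not that of these copies, and all its changes exceeded 2-fold. It therefore does not show how well smaller changes of these copies were found. Parents came from symbols, descriptions or blastn 2.17.0 (at least 50% of the span, at least 70% identity). The members and gene lists were chosen with earlier results of these data known. The genes named were the 10 highest (1 of them is not reported here), the 5 largest rises and falls whose groups did not overlap, the 5 farthest from their parent, the neighbours of the threshold and their parents. Any other gene named was chosen after its values were seen. Another pseudocount, filter, scaling, variance prior or member rule, a replicate block, voom on rebuilt reads and leaving out each library were the alternatives. Depth ranged from 30606569 to 32169496 reads, and short copies rest on few of them.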

Additional observations from a re-analysis of the deposited data

How the results depend on the processing

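All 6 copies of glycolysis genes were called lower in each refit with another scaling, pseudocount, filter, variance prior or set of libraries, and were not counted under the other rules for membership. Of 752 refitted values of 42 single genes, 661 kept their direction and side of the threshold. Of 376 pair differences 369 moved by less than their spread. A sign change counted as a reversal only for pairs whose difference did not overlap between the groups, and 0 such were found. Pgam1-ps2 minus Pgam1 did change sign, from -0.26 to 0.18 with a pseudocount of 1. Centring, the filters, the variance prior and the replicate block leave a pair difference unchanged by construction, so they do not test it. Median-of-ratios scaling, TPM and rescaling by rebuilt reads multiply a library by 1 factor, which cancels in the difference apart from the pseudocount. The 369 include all of these refits. Centred on the T-cell identity genes, 29 of the 255 were called lower and 2 higher, 127 fell and 3 rose, 0 ribosomal protein copies rose, and the median turned from 0.13 to -0.40. The same centring turned Gm9794 (-0.24), Gm14303 (-0.08), Rps16-ps2 (-0.29), Rps10-ps2 (-0.12), Gm10443 (-0.35), Tpt1-ps3 (-0.22), Gm20689 (-0.32), Rpl23 (-0.24), Rpl17 (-0.14), Rps16 (-0.21), Rps10 (-0.11), Rps28 (-0.04), Rpl38 (-0.40), Tpt1 (-0.25), Hmgb1 (-0.35), Rpl29 (-0.24) and Rab8b (-0.10). The median was 0.21 with quantile normalization, 0.21 with voom and 0.22 with FPKM rescaled by rebuilt reads, both of the latter chosen after seeing the data, and 65.6% of the copies that passed were higher on the deposited scale, 76.3% with quantile normalization, 77.4% after rescaling and 2.31% after centring. Without a trend in the variance prior 37 rose, 18 of them ribosomal protein copies, and with no filter on low values 21 ribosomal protein copies rose. Over all tested genes 2687 were called, 1762 with a pseudocount of 1 and 1145 with a filter at 5 FPKM. With a minimum of 2 FPKM for membership 27 were called lower, 15 called higher and 50 fell, and with 10 FPKM 9, 3 and 20. Among copies overlapping no gene 8 were called lower, 1 called higher, 19 fell and 37 rose. Among those with under 50% of windows in the parent, a split chosen after seeing the data, 6 were called lower, 9 fell and 27 rose, and with no window 1 was called lower, 2 fell, 8 rose and the median was 0.23. Leaving out each library in turn gave 13 to 18 called lower, 4 to 7 called higher, 23 to 30 that fell, 38 to 50 that rose, 20 to 27 ribosomal protein copies that rose, 6 to 6 glycolysis copies called, medians of 0.10 to 0.16 and 2600 to 2692 genes called. It also reversed small values of Rpl17-ps3 (-0.17 to 0.14 over the 6 fits, 0.09 without control replicate 2), which was 0.06 with voom and 0.06 after rescaling, and of Rpl38-ps2 (0.03 without cisplatin replicate 1), Gm20689 (-0.02 to 0.33, the lowest without control replicate 2), H3f3c (-0.69 to 0.31, the highest without control replicate 3) and Rpl38 (-0.12 to 0.32, with -0.03 without cisplatin replicate 2). The cause of these changes was not tested. The replicate block gave 14 called lower, 6 called higher, 40 that fell, 70 that rose, 41 ribosomal protein copies that rose, 6 glycolysis copies called, a median of 0.13 and, over all tested genes, 651 called higher and 2011 lower. Same-numbered libraries did not deviate together (correlations 0.02, -0.06 and -0.02), so the numbers were not taken as pairs.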
